A study of Mus musculus with 7 samples.

Results

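The 74 genes described here are the cytochrome P450 enzymes of families 1 to 4 with a value of their own in the adrenal glands studied, out of 22180 genes tested in all. A gene was taken when the symbol of its probe set, the group of array probes summarised as 1 value, named a P450 of these families and no other gene. Cyp2f2, a marker of the X-zone, was left out by the same rule. Whole glands were taken at 2 months of age from female mice, 4 with Ezh2 deleted conditionally (sf1:Cre; Ezh2 Fl/Fl, KO) and 3 wild-type littermates (WT). The Cre recombinase is driven by regulatory sequence of steroidogenic factor 1, which is active in steroid-producing cells of the cortex, and recombination in each cell type of the gland was not measured here. Ezh2 is the methyltransferase of a Polycomb complex that marks histone H3 at silenced genes. The mice had a mixed background, mainly C57BL/6 and SV129, that was not controlled, and the labels call each array a biological replicate.

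Cytochrome P450 enzymes are heme proteins that insert an oxygen atom into their substrates, and most of those in families 1 to 4 sit in the endoplasmic reticulum and take electrons from P450 reductase. Families 1 to 3 are known chiefly for the oxidation of drugs, pollutants and steroids in the liver, and family 4 for the hydroxylation of fatty acids and eicosanoids. The steroid hormones of the adrenal cortex are made by P450 enzymes of other families, such as Cyp11a1, Cyp11b1 and Cyp21a1, so the genes described here stand beside the main steroid pathway of the gland. Among them Cyp1b1 is known from the adrenal cortex of rodents, where corticotropin raises it.

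Upstream sequences are shown first for 3 genes, because Cyp1b1 and Cyp1a1 are textbook targets of the same xenobiotic sensor, the aryl hydrocarbon receptor, and had different values here, and because Cyp2j9 lay closest to the threshold among the genes that missed it. Each is the 250 bases before the start of the gene, 5′ to 3′ on the gene's strand, from RefSeq on GRCm38.p6. Capitals mark GCGTG, the core of the dioxin response element to which this receptor binds, or its reverse complement CACGC.
Cyp1b1 (chr17:79715062-79715311, minus strand): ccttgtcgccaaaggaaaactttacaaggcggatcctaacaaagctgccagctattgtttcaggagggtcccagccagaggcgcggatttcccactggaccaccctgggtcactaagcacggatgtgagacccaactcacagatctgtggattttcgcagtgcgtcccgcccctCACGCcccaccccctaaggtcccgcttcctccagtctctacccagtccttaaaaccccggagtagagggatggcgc
Cyp1a1 (chr9:57697363-57697612, plus strand): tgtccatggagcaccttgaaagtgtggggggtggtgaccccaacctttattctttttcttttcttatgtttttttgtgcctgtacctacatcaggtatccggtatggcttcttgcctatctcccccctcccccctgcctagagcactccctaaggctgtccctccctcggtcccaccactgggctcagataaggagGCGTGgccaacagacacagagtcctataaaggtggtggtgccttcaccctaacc
Cyp2j9 (chr4:96591486-96591735, minus strand): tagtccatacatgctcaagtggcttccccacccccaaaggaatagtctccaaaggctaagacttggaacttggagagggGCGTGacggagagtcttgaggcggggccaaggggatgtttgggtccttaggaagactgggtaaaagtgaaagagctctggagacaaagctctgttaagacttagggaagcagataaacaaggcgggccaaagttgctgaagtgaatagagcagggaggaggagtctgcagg
The core occurred 1 time in each of these windows, beginning 76 bases before the start of Cyp1b1, 54 bases before that of Cyp1a1 and 171 bases before that of Cyp2j9. Upstream sequences were matched for 60 of the 74 genes. The core was present on either strand in 12 of these 60 (20%), against 28.2% of the 27025 upstream sequences of all genes. The binding motif of steroidogenic factor 1, AAGGTCA on either strand, was present in 6 of 60 (10%), against 4.05% of all genes. A TATA box (TATAAA on the gene's strand, wholly within the bases 40 to 16 before the start) was present in 9 of 60 (15.0%), against 2.22% of all genes. These 9 were Cyp1a1, Cyp1a2, Cyp2a4, Cyp2a5, Cyp2a12, Cyp2a22, Cyp2c38, Cyp2c55 and Cyp2e1. A match of letters is a description of the window and not a binding site.

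The deposited values were log2 values made by RMA, which corrects background, equalises the arrays and summarises the probes of a probe set. No detection calls were used, and values at the low end of the scale cannot be told from background, where differences are compressed. Values of different probe sets are not amounts of transcript, and their order is used below only to show how near a probe set lies to the low end of the scale. The glands carried the cortex program throughout, with 10 markers of adrenal cortex between 9.97 and 13.1 on all arrays. Of these 10, 1 was higher in KO and 0 lower at an adjusted p under 0.05 by limma, where 8.69% of all genes were called. An unadjusted p under 0.05 was found for 7 (70%, against 22.8% of all genes and 35.2% of those above the median level). Of the 10 changes 6 were positive and 4 negative. Ezh2 itself was at 6.86, 7.04, 7.10 and 7.15 on the KO arrays, against 7.08 on each WT array (log2 change -0.04, adjusted p = 0.816 by limma), and the sources used here do not say which exons its probe set covers, so it does not check the labels. In a whole gland, fewer cells of a type and less RNA per cell cannot be told apart. Among markers of other cells, 9 of 9 chromaffin markers and 6 of 10 capsule and stroma markers were higher in KO, 4 of 4 X-zone markers were lower, and 0 of 10 adipocyte markers passed the test although all 10 had negative changes and 2 had an unadjusted p under 0.05. Their part in the results below was not tested, beyond the values given beside single genes.

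Of the 74 P450 genes, 1 changed between KO and WT glands. Cyp2d22 rose 1.38-fold, and 0 genes fell. The test was limma over all 22180 genes with Benjamini-Hochberg adjustment, and a gene was called at an adjusted p under 0.05. The 1 call is 1.35% of the family, where 5.14% of all genes were called higher and 3.55% lower (8.69% in all). Higher calls were 59.1% of the calls over all genes, and 43.1% with arrays centred on their medians. At an unadjusted p under 0.05, 5 P450 genes had positive and 6 had negative changes (14.9% of 74, against 22.8% of all genes). KO and WT values were fully separate for 9 of the 74 (12.2%, against 20.2% of all genes). All KO arrays were above all WT arrays for 5 (against 10.3% of all genes) and below them for 4 (against 9.86%). The authors' deposited table called 3 of its 75 symbols of these families higher (Cyp1b1, Cyp2d22 and Cyp2j9) and 1 lower (Cyp2u1), where 5.57% of all its symbols were higher and 4.16% lower. The median change of the family was 0.004, beside 0.0004 over all genes, and 39 changes were positive and 35 negative.

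Most of these genes lay low on the array's scale. Of the 74, 45 (60.8%) were among the 5545 lowest of all genes by mean value and 61 were at or under the median, 5.84. Among those lowest genes 0 of 45 P450 genes were called by limma and 3 had an unadjusted p under 0.05 (6.67%), where 0.595% of the 5545 were called and 5.32% had such a p. Among the 13 P450 genes above the median 1 was called (7.69%), where 14.9% of all genes above it were. In these 13 the share with an unadjusted p under 0.05 was 38.5%, against 35.2% of all genes above the median, and the share with separate groups was 38.5%, against 32.2%. The calls, 0 of 45 and 1 of 13, are too few to set the family apart from all genes in these 2 level classes. Its shares with an unadjusted p under 0.05 were not lower in either class. Separate groups made up 4.44% of the 45, against 4.18% of the 5545. All 4 changes of at least 0.5 log2 units, those of Cyp1b1, Cyp2e1, Cyp4f18 and Cyp2j9, belonged to these 13. The 95% interval of the change lay within 1.5-fold in either direction for 65 of the 74 genes (87.8%, against 87.5% of all genes). It lay within 2-fold for 71. Among the 13 above the median it lay within 1.5-fold for 6 (46.2%, against 81.6% of all genes above it). Among the 45 lowest it did for 44 (97.8%, against 96.7% of the 5545). The intervals of Cyp1b1, Cyp2e1 and Cyp4f18 went beyond 2-fold.

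**Figure D1:**
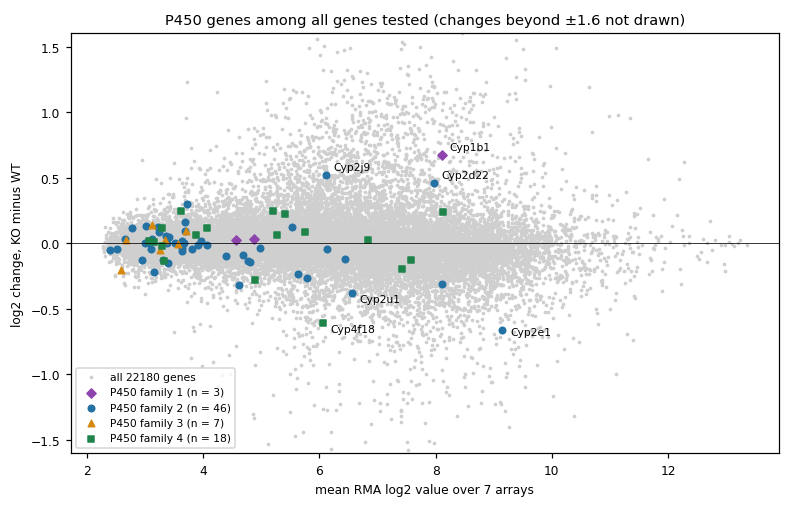
Mean RMA log2 value over the 7 arrays (horizontal) and log2 change, KO minus WT (vertical), for all genes tested (grey) and the P450 genes by family (coloured symbols). Of the 74 P450 genes 45 are among the lowest 5545 genes, and the 4 changes of at least 0.5 log2 units lie to the right of them.

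**Figure D2:**
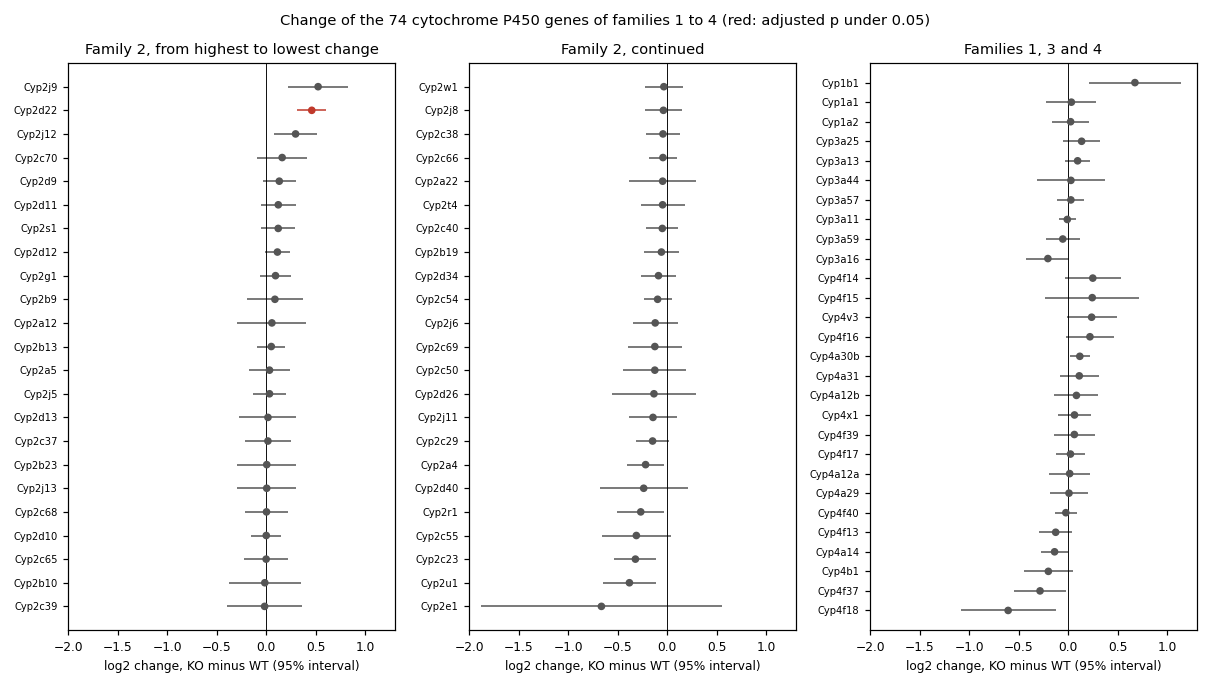
Log2 change, KO minus WT, of each of the 74 P450 genes with its 95% interval from limma, from highest to lowest within each family. Cyp2d22 (red) is the gene called, and Cyp2e1 has the widest interval, -1.88 to 0.55.

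Family 1 holds the 3 enzymes that oxidise polycyclic aromatic compounds and estrogens under the aryl hydrocarbon receptor. Cyp1b1, which hydroxylates estradiol and activates procarcinogens outside the liver, was at 8.19, 7.98, 8.86 and 8.56 on the KO arrays, against 7.74, 7.70 and 7.73 on the WT arrays. All 4 KO arrays lay above all 3 WT arrays, and the KO arrays were spread over a much wider range. The means were 8.40 ± 0.39 in KO and 7.72 ± 0.02 in WT (SD, n = 4 and 3). The log2 change of 0.67, or 1.6-fold, was the largest positive change of the family and did not pass the test (SE 0.20, 95% interval 0.21 to 1.14, adjusted p = 0.0893 by limma). The adjusted p was 0.0483 without KO replicate 2 (change 0.81), the change was 0.52 without KO replicate 3, and over 16 alternatives the adjusted p was 0.0384 to 0.637. The authors' deposited table has 0.67 for this gene, at an adjusted p of 0.0384. The 10 capsule and stroma markers averaged 8.05 to 8.72 in KO and 7.57 to 7.63 in WT, and their mean was highest on KO replicate 3, as Cyp1b1 was. Among the KO arrays their mean was lowest on replicate 1 (8.05, against 8.42 on replicate 2), and Cyp1b1 was lowest on replicate 2. The part of these cells in the value of Cyp1b1 was not tested.

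The other two enzymes of the family gave no such difference. Cyp1a1, the main inducible target of the receptor, was at 4.83, 4.83, 4.70 and 5.18 on the KO arrays and at 4.89, 4.83 and 4.83 on the WT arrays, so that the groups overlapped (log2 change 0.03, 95% interval -0.22 to 0.29, adjusted p = 0.896 by limma). Cyp1a2, which oxidises caffeine and arylamines in the liver, had a log2 change of 0.02 (95% interval -0.16 to 0.21). Over the 7 arrays Cyp1a1 and Cyp1a2 had means of 4.87 and 4.57, under the median of all genes (5.84), while Cyp1b1 had 8.11. The difference between the changes of Cyp1b1 and Cyp1a1 was not tested.

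**Figure D3:**
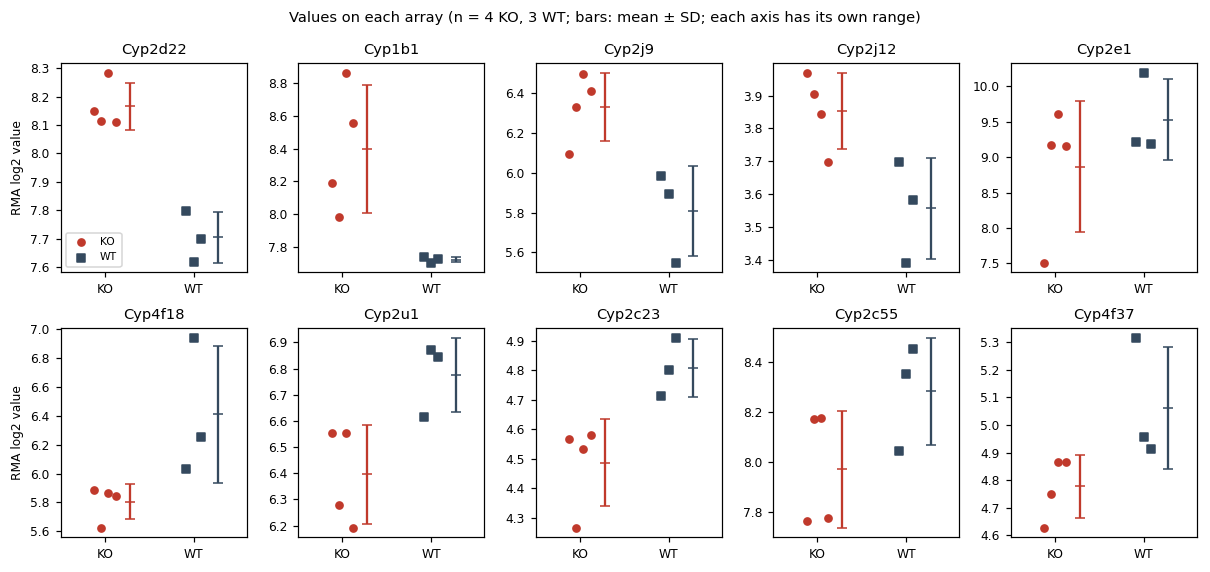
RMA log2 values on the 4 KO arrays (red circles) and 3 WT arrays (dark squares) for the 10 P450 genes with the largest changes, with mean ± SD beside the points. The KO points lie above all WT points for Cyp2d22, Cyp1b1, Cyp2j9 and Cyp2j12 and below them for Cyp4f18, Cyp2u1, Cyp2c23 and Cyp4f37, while those of Cyp2e1 and Cyp2c55 overlap with WT.

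Cyp2d22 belongs to the Cyp2d subfamily, whose human member oxidises many basic drugs, and is often taken as the nearest mouse counterpart of that enzyme. It was at 8.15, 8.11, 8.28 and 8.11 on the KO arrays, against 7.80, 7.62 and 7.70 on the WT arrays. The groups did not overlap, and every KO array exceeded the highest WT array, replicate 1. Means were 8.17 ± 0.08 in KO and 7.71 ± 0.09 in WT (SD, n = 4 and 3). KO exceeded WT by 0.46 on the log2 scale (SE 0.06, 95% interval 0.31 to 0.61, adjusted p = 0.00642 by limma). The change was positive in each of 16 alternatives, between 0.41 and 0.51. It was called in 14 of them, including each of the 7 fits without 1 array (adjusted p 0.0146 to 0.0364). The 2 that lost the call were a minimum fold of 1.2 (adjusted p = 0.207) and the replicate number as a block, whose values stand with the alternatives. The authors' deposited table lists 0.51 on the log2 scale, at an adjusted p of 0.00287. Markers of chromaffin cells had a mean of 10.6 to 10.9 on these KO arrays and 9.76 to 9.87 on the WT arrays, and those of capsule and stroma the means given for Cyp1b1. Whether such cells hold the transcript of Cyp2d22 was not tested.

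The other 8 genes of the subfamily lie beside Cyp2d22 on chromosome 15 and none of them was called. Their changes ran from -0.24 to 0.13. Cyp2d9, which hydroxylates testosterone in the male mouse liver, had a change of 0.13 at a value near the floor (mean 3.01). Cyp2d40 and Cyp2d26 had changes of -0.24 (SE 0.19) and -0.13 (SE 0.18) by limma. The subfamily's median change was 0.02. These genes are close in sequence, and whether the probes separate them was not tested.

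Cyp2e1, which oxidises ethanol and other small molecules and is known from liver and fat, was at 7.51, 9.17, 9.61 and 9.15 on the KO arrays and at 9.21, 10.19 and 9.18 on the WT arrays. KO replicate 1 was far below the rest and WT replicate 2 above them, and the groups overlapped. Means were 8.86 ± 0.92 in KO and 9.53 ± 0.57 in WT (SD, n = 4 and 3). The log2 change of -0.66 had the largest SE of the family, 0.52, and was not called (95% interval -1.88 to 0.55, adjusted p = 0.503 by limma). It was -0.22 without KO replicate 1 and -0.33 without WT replicate 2. The mean of 10 adipocyte markers was 6.76, 8.57, 8.38 and 7.61 on the KO arrays and 8.03, 9.28 and 9.08 on the WT arrays, so that the lowest and the highest array were the same as for Cyp2e1. The share of fat in these glands was not tested as a cause.

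**Figure D4:**
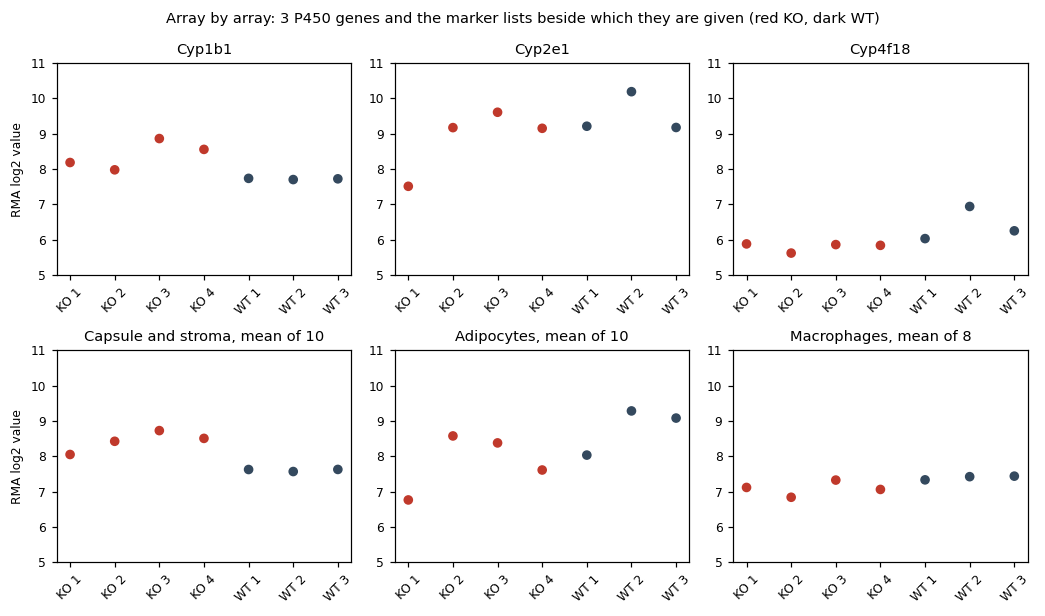
RMA log2 values of Cyp1b1, Cyp2e1 and Cyp4f18 (top) and means of the capsule and stroma, adipocyte and macrophage markers (bottom) on each KO (red) and WT (dark) array, with the vertical axis starting at 5. Cyp2e1 and the adipocyte mean are both lowest on KO replicate 1 and highest on WT replicate 2.

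Of the 16 Cyp2a, Cyp2b and Cyp3a genes, which metabolise drugs and steroids, 15 lay under the median of all genes. In the Cyp2b subfamily, which holds targets of the constitutive androstane receptor such as Cyp2b10, all 5 genes were among the lowest 5545, with changes from -0.06 to 0.09 and 0 calls. All 7 Cyp3a genes, among them Cyp3a11, the target of the pregnane X receptor, lay between 2.58 and 3.71, with changes from -0.20 to 0.14. None of the 7 was called by limma or had an unadjusted p under 0.05. Of 4 Cyp2a genes 0 were called and 1 had an unadjusted p under 0.05, the steroid hydroxylase Cyp2a4 (change -0.22, adjusted p = 0.158). Its value was near the floor (mean 3.16), and its KO and WT arrays overlapped. The 1 gene of the 16 above the median, Cyp2a22, was at 6.12 ± 0.20 in KO and 6.16 ± 0.24 in WT (SD, n = 4 and 3; change -0.05, adjusted p = 0.890).

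The enzymes of arachidonic acid and related fatty acids include the Cyp2j, Cyp2c and Cyp2u1 genes, which make epoxides or hydroxylated products. Cyp2j9, known from mouse brain, was at 6.10, 6.33, 6.49 and 6.41 on the KO arrays, against 5.98, 5.89 and 5.55 on the WT arrays. The groups did not overlap, although KO replicate 1 lay close to the upper WT array. Its log2 change was 0.52 or 1.44-fold (SE 0.13, 95% interval 0.22 to 0.83), and its adjusted p of 0.0531 by limma was just outside the threshold. It was called in 5 of 16 alternatives, among them the fit without KO replicate 1 (adjusted p = 0.0414), array weights (0.0348) and the authors' deposited table (log2 change 0.59, adjusted p = 0.0272), with a range of 0.0272 to 0.676. Its neighbour Cyp2j12 was at 3.97, 3.90, 3.85 and 3.70 on the KO arrays and at 3.70, 3.39 and 3.58 on the WT arrays (KO minus WT 0.30 on the log2 scale, SE 0.09, adjusted p = 0.102). The KO arrays lay above the WT arrays there too, but at values near the floor, and KO replicate 4 and WT replicate 1 were almost equal. The 5 other Cyp2j genes of the cluster on chromosome 4 had changes from -0.14 to 0.03, and Cyp2j6, an epoxygenase, was at 6.38 ± 0.09 in KO and 6.51 ± 0.19 in WT (SD, n = 4 and 3; change -0.12, adjusted p = 0.512).

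Cyp2u1, which hydroxylates long-chain fatty acids, was at 6.56, 6.28, 6.56 and 6.19 on the KO arrays, against 6.61, 6.87 and 6.84 on the WT arrays. All KO arrays were below all WT arrays, with KO replicates 1 and 3 close to WT replicate 1. Its log2 change of -0.38 (SE 0.11, 95% interval -0.65 to -0.11) had an adjusted p of 0.0953 by limma, with a range of 0.0384 to 1 over 16 alternatives, and the lowest of these came from the authors' deposited table (log2 change -0.44). Cyp2c23, also called Cyp2c44, is an epoxygenase known from mouse kidney. It was at 4.57, 4.27, 4.53 and 4.58 on the KO arrays and at 4.71, 4.80 and 4.91 on the WT arrays, again without overlap. Its change of -0.32 (SE 0.09, adjusted p = 0.0784 by limma) was called when arrays were centred on their medians (-0.37, adjusted p = 0.0433). Its adjusted p ranged from 0.0433 to 1 over 14 alternatives. Under the symbol Cyp2c44 the authors' deposited table gave -0.34 with an adjusted p of 0.0721.

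Cyp2c55, which hydroxylates arachidonic acid in the mouse colon, had 2 probe sets that gave unlike values. The brighter, used here by the rule, was at 7.76, 8.17, 8.18 and 7.78 on the KO arrays and at 8.04, 8.35 and 8.46 on the WT arrays, with overlapping groups (log2 change -0.31, SE 0.15, adjusted p = 0.270 by limma). The dimmer had a mean of 3.46 over the 7 arrays, in place of 8.11, and a change of 0.07. The authors' deposited table gave 0.04 for the gene. By the order of the array's identifiers, the 10 nearest named neighbours of the brighter probe set with a known strand were all on the strand opposite to Cyp2c55, and the 10 neighbours of the dimmer one were all on its own strand. All 20 lie on chromosome 19. The sources used here do not give the strand for which the brighter probe set was designed, so its value is uncertain as a level of Cyp2c55. Cyp2c29 also had 2 probe sets, both near the floor, with changes of -0.15 and 0.04, of which neither was called. Of the 14 Cyp2c genes 0 were called by limma and 1, Cyp2c23, had an unadjusted p under 0.05. Negative changes were found in 11 of the 14, with a median of -0.05, where 11056 of the 22180 genes tested had them. This count takes in Cyp2c55 by its brighter probe set, whereas the dimmer one had a positive change. By level 11 of the 14, not all the same genes, were among the lowest 5545. Whether the subfamily fell as a whole was not tested.

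Family 4 holds 18 genes whose enzymes hydroxylate the far end of fatty acids and eicosanoids, and 0 of them were called by limma. An unadjusted p under 0.05 was found for 3 (16.7%, against 22.8% of all genes). Cyp4f18, which inactivates leukotriene B4 in mouse neutrophils, was at 5.88, 5.62, 5.86 and 5.84 on the KO arrays, against 6.03, 6.94 and 6.25 on the WT arrays. The KO arrays were close together and all below the WT arrays, which were spread by nearly a whole log2 unit. The log2 change was -0.61 or 1.52-fold lower in KO (SE 0.20, 95% interval -1.09 to -0.13, adjusted p = 0.130 by limma), and was -0.34 without WT replicate 2. Over 16 alternatives the adjusted p was 0.0732 to 0.968. Macrophage markers, the nearest list to this cell type, had a mean of 6.84 to 7.32 on the KO arrays and 7.33 to 7.44 on the WT arrays, with 1 of 8 lower in KO, the lysozyme gene Lyz2 (-0.71, adjusted p = 0.00427). Their part in the value of Cyp4f18 was not tested.

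The 8 Cyp4f genes of the cluster on chromosome 17 went both ways. Cyp4f37 was at 4.63, 4.75, 4.87 and 4.86 on the KO arrays and at 5.32, 4.96 and 4.91 on the WT arrays (log2 change -0.28, SE 0.11, adjusted p = 0.183 by limma). The groups did not overlap, but lay close together, and the change was -0.16 without WT replicate 1. Its neighbours Cyp4f16, Cyp4f15 and Cyp4f14 had positive changes of 0.22 (adjusted p = 0.263), 0.24 (0.533) and 0.25 (0.276). Cyp4f13 and Cyp4f17 were at 7.51 ± 0.08 and 6.85 ± 0.09 in KO and at 7.64 ± 0.12 and 6.82 ± 0.06 in WT (SD, n = 4 and 3). The change of Cyp4f13 was -0.13, and -0.06 without WT replicate 2. The change of Cyp4f17, 0.02, turned sign under 3 of 16 alternatives.

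Cyp4v3, the mouse counterpart of a human fatty acid hydroxylase mutated in a crystalline retinal dystrophy, was at 8.36, 8.14, 8.38 and 8.07 on the KO arrays and at 7.82, 8.13 and 8.05 on the WT arrays. Those groups overlapped, with a change of 0.24 (SE 0.11, adjusted p = 0.244 by limma) that was 0.15 without WT replicate 1. Cyp4b1, which activates inhaled protoxins in the lung, was at 7.34 ± 0.09 in KO and 7.54 ± 0.22 in WT (SD, n = 4 and 3; change -0.20, adjusted p = 0.310), and the change was -0.08 without WT replicate 2. The 6 Cyp4a genes, targets of Ppara in the liver, had changes between -0.14 and 0.12. All 6 lay under the median of all genes, and 5 were among the lowest 5545. Of these 6, 0 were called by limma and 1, Cyp4a30b, had an unadjusted p under 0.05 (change 0.12, adjusted p = 0.160), at a value near the floor (mean 3.29). Cyp2r1, a vitamin D hydroxylase of family 2, was at 5.67 ± 0.15 in KO and 5.94 ± 0.14 in WT (SD, n = 4 and 3; change -0.27, adjusted p = 0.169).

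The partners and regulators of these enzymes gave 2 rises and 3 falls among 45 measured genes in 4 lists, which were chosen with earlier results of these data known. This is 11.1% of the 45, near the 8.69% of all genes called. Without 1 array the counts were 1 to 2 higher and 1 to 5 lower. Of 8 electron donors and partners 2 fell and 0 rose. Cyb5b, the cytochrome b5 of the outer mitochondrial membrane, was at 10.64, 10.52, 10.34 and 10.69 on the KO arrays, against 11.10, 11.13 and 11.03 on the WT arrays (log2 change -0.53, SE 0.09, adjusted p = 0.0121 by limma). Pgrmc2, a heme-binding membrane protein, fell by 0.26 (SE 0.05, adjusted p = 0.0312), a call held in 7 of 16 alternatives and in 1 of the 7 fits without 1 array, against 14 of 16 for Cyb5b, whose adjusted p was 0.0577 without WT replicate 2. The cytochrome b5 of the endoplasmic reticulum, Cyb5a, had a change of -0.20 (adjusted p = 0.222). P450 reductase itself, Por, was not analysed here. The list's median change was -0.16.

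Of 11 genes of heme synthesis and breakdown 1 rose. This was Alas1, the rate-limiting enzyme of heme synthesis, at 11.47, 11.29, 11.59 and 11.43 on the KO arrays and at 11.23, 10.93 and 11.01 on the WT arrays (log2 change 0.39, SE 0.09, adjusted p = 0.0477 by limma). Alas1 was called in 7 of 16 alternatives (adjusted p 0.0269 to 1), and of the fits without 1 array it was called in that without WT replicate 1 alone. The heme oxygenase Hmox1 had a change of 0.55 (adjusted p = 0.113), and the list's median was 0.005. Of 18 sensors of xenobiotics and lipids 1 rose and 1 fell. Arnt2, a partner of basic helix-loop-helix receptors known from neurons, was at 8.98, 8.72, 8.63 and 8.53 on the KO arrays, against 7.67, 7.74 and 7.72 on the WT arrays (log2 change 1.00, SE 0.10, adjusted p = 0.00252). Nr1h4, the bile acid receptor FXR, was at 7.19, 7.08, 6.54 and 6.89 on the KO arrays and at 8.11, 8.03 and 8.21 on the WT arrays (log2 change -1.19, SE 0.15, adjusted p = 0.00457). The receptors named above had smaller changes, -0.09 for Ahr (adjusted p = 0.578), -0.02 for the pregnane X receptor Nr1i2, -0.03 for the constitutive androstane receptor Nr1i3 and -0.37 for Ppara (adjusted p = 0.189). The median of this list was -0.02.

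Of 8 epoxide hydrolases and flavin monooxygenases 0 were called by limma and 5 had an unadjusted p under 0.05. That is 62.5% of the list, where the share was 22.8% over all genes and 35.2% over those above the median level. The list's mean was 6.69 to 6.90 on the KO arrays and 6.79 to 7.07 on the WT arrays. Among the electron donors and partners 4 of 8 (50%) had such a p. Fmo1 and Fmo2, both oxidases of amines and sulfides, had changes of -0.79 (adjusted p = 0.0564) and 0.80 (adjusted p = 0.0784), and the KO and WT arrays of neither overlapped. Ephx2, the soluble hydrolase of fatty acid epoxides, had a change of -0.89 (adjusted p = 0.135). Of the 20 measured P450 genes of families above 4, which include the steroid hormone enzymes, 0 were called by limma. Over all genes 8.69% were called, and 14.9% of those above the median level. An unadjusted p under 0.05 was found for 6 of the 20 (30%, against 22.8% of all genes). The median change of the 20 was 0.08. Cyp2f2, outside the counts above, was at 7.04, 6.5, 7.03 and 7.23 on the KO arrays, against 10.48, 11.07 and 11.31 on the WT arrays, and its change of -4.0 stands beside a range of -0.66 to 0.67 for the 74 genes.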

How the data were processed

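RNA of 7 whole adrenal glands was measured on 1-colour Affymetrix arrays. The authors deposited log2 values of 41345 probe sets, computed with RMA (per the submitters' processing notes). The version of RMA and the build were not given in the sources used here. A second table holds the authors' deposited log2 fold change, p-value and adjusted p-value per symbol, by a test that the sources used here do not name.

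Platform annotation gave 1 symbol to 23521 probe sets, several to 1820 and none to 16004. The probe set with the highest mean was used per gene. KO was compared with WT by lmFit and eBayes in limma 3.58.1 (R 4.3.3, statmod 1.5.0) on 22180 genes, two-sided, without a filter or covariates, with 5 residual degrees of freedom and a median SE of 0.0703. The number of arrays limits the precision. The fit was tested on simulated data. The P450 genes and all lists were chosen with earlier results of these data known. P450 genes that were called, had 1 of the 10 largest changes or 8 highest means, or had disagreeing probe sets were named by rule. Array values, group means or changes are given for them. Others were named after their values were seen. Upstream sequences came from RefSeq. The 16 alternatives changed the filter, probe set rule, variance prior, scaling, weights, replicate block or fold minimum, left out each array in turn, or took the authors' table, and 1 more block was added after seeing the data. Probe sets naming more than 1 gene were not used.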

Additional observations from a re-analysis of the deposited data

Results flagged for a closer look

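In 12 of the 74 P450 genes 1 of the 4 KO arrays stood far from the other 3 by Dixon's test of the gap against the KO range. Chance flags about 1 in 20 groups when values are not tied. The share flagged over all genes was not counted, so the 12 cannot be called an excess of this family. The far array was KO replicate 2 in 5 genes, replicate 3 in 3, and replicates 1 and 4 in 2 each, and it was high in 7 and low in 5. In 5 of the 12 the other 3 KO arrays held the same value within 0.001, so that any departure would have been picked out. These were Cyp2b19 (3.65 on KO replicate 1, 3.60 on the others), Cyp2d13 (4.03 on KO replicate 2, 3.94), Cyp2w1 (4.95 on KO replicate 4, 4.97), Cyp3a11 (3.58 on KO replicate 3, 3.55) and Cyp4f40 (3.30 on KO replicate 2, 3.27).

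Of the genes with groups that did not overlap, Cyp2c23 was at 4.27 on KO replicate 2 and at 4.53 to 4.58 on the other KO arrays. Cyp4f18 was at 5.62 on KO replicate 2 and at 5.84 to 5.88 on the others. Cyp4a30b was at 3.27 on KO replicate 4 and at 3.36 to 3.37 on the others. The rest were Cyp2c54 (4.23 on KO replicate 1, others 4.38 to 4.39), Cyp2d12 (2.88 on KO replicate 3, others 2.79 to 2.80), Cyp4a12b (6.03 on KO replicate 3, others 5.68 to 5.71) and Cyp4f39 (4.09 on KO replicate 2, others 3.83 to 3.85). None of these 12 genes was called by limma.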

How the results depend on the processing

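The 15 P450 genes named by rule were compared with the alternatives. Of 235 comparisons, 220 kept direction and side of the threshold, 9 gained a call, 2 lost it and 4 reversed. The call of Cyp2d22 was lost with a fold minimum of 1.2 (adjusted p = 0.207) and with the replicate number as a block (change 0.48, adjusted p = 0.0503), a fit in which KO replicate 4 has no partner and drops out. These numbers are those of the titles, and same-numbered arrays had correlations of deviations of 0.07, -0.0835 and -0.111. The descriptions number the WT arrays 1 higher, so that KO replicate 1 has no partner, and gave correlations of -0.0708, 0.211 and -0.0229. By neither numbering did every pair exceed 0.1, so the arrays were not treated as paired. A block by the descriptions' numbers, added after seeing the data, gave 0.46 for Cyp2d22 (adjusted p = 0.0738), 0 P450 genes higher and 0 lower, and 610 higher and 393 lower over all genes. The reversals were Cyp2c55 in the authors' deposited table (0.042) and Cyp4f17 there (-0.020), after median centring (-0.028) and without WT replicate 3 (-0.010, in a range of -0.010 to 0.065 without any 1 array).

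The count of P450 genes called higher, 1 as reported, was 2 with the filter on low values, with a trended robust prior and with array weights, 0 with the block and with the fold minimum, 3 in the authors' table, and 1 to 2 without any 1 array. The count called lower, 0, was 1 with centred arrays and 1 in the authors' table, and 0 without each array. Over the 4 partner lists together with the P450 families above 4 (65 genes, 46 after the filter and 71 in the authors' table), 2 higher became 5 with the filter, 1 with centring, 4 after quantile normalization, 1 with the block, 3 with the descriptions' block, 1 with the fold minimum, 5 in the authors' table and 1 to 2 without 1 array. The 3 lower there became 5 with the filter, centring or array weights and in the authors' table, 1 with the descriptions' block or the fold minimum, and 1 to 5 without 1 array. Over the 45 genes of the 4 lists alone (34 after the filter and 50 in the authors' table), the higher count differed from this in 3 of these settings, being 4 with the filter, 3 after quantile normalization and 4 in the authors' table, and the lower counts were the same. Over all genes, 1140 higher became 523 with the block, 308 with the fold minimum and 594 to 945 without 1 array, and 788 lower became 1329 with centring, 286 with the block, 130 with the fold minimum, 1191 in the authors' table and 322 to 654 without 1 array. The arrays that moved these counts by over 1.5 times were WT replicate 2 (633 higher, 394 lower), WT replicate 3 (594 higher, 322 lower), KO replicate 2 (477 lower) and KO replicate 3 (515 lower). The filter tested fewer genes, the block and the fits without 1 array rested on fewer samples, and the fold minimum set a stricter null. Some counts rose with fewer samples, as the lower count of the partner lists did without KO replicate 1 (5). The cause of the shifts was not tested.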

Other observations

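Cyp2d40 and Cyp2d26, which neighbour each other on chromosome 15, were both lowest on the same array. Cyp2d40 was at 5.87, 5.63, 5.61 and 5.0 on the KO arrays and at 5.83, 5.73 and 5.73 on the WT arrays. Cyp2d26 was at 4.98, 4.91, 4.73 and 4.26 on the KO arrays and at 4.87, 5.02 and 4.67 on the WT arrays. In both genes KO replicate 4 lay below every other array.

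Of the 74 P450 genes 19 (25.7%) held the same value to 3 decimals on at least 3 of the 7 arrays, as did 31.7% of all genes, and what makes values equal was not tested. The authors' deposited table holds 75 symbols of families 1 to 4 other than Cyp2f2, of which 70 are shared with the genes described here. Of the 5 symbols that are not shared, Cyp2c44 is given above, and Cyp2c67, Cyp3a41b, Cyp4a10 and Cyp4a32 had log2 changes from -0.17 to 0.01, none with an adjusted p under 0.05. The marker lists of hepatocytes and kidney tubule, organs rich in these enzymes, had 1 of 12 and 0 of 10 genes called by limma. Of 8 endothelial markers 2 were lower in KO and 0 higher, and the 1 erythroid marker measured was not called. The hepatocyte gene called was Ahsg, fetuin A (1.22, adjusted p = 0.0123), while albumin, Alb, had a change of 0.07 (adjusted p = 0.764) at values of 5.46, 5.55, 5.48 and 5.35 on the KO arrays and 5.45, 5.61 and 5.10 on the WT arrays.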
